A study of Mus musculus with 12 samples.

Results

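The cytokines described here are interleukin-6 (Il6), oncostatin M (Osm) and leukemia inhibitory factor (Lif) of the interleukin-6 family, the subunit genes Il12a, Il12b, Il23a, Il27 and Ebi3 of the interleukin-12 family, and interleukin-10 (Il10). They were followed in mouse dendritic cells (DC) stimulated with poly(I:C), a synthetic analog of viral double-stranded RNA. Members were the probe sets whose annotation names exactly 1 gene, that gene being 1 of these 9. This gave 10 probe sets of 8 genes, out of 45101 probe sets on the array and 18193 genes that were the only gene of a probe set. Il27 had no such probe set in the annotation used here and was not analysed here.

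The study followed the maturation of DC over time, on 12 arrays from 6 times (0, 1, 3, 6, 12 and 24 h after addition of poly(I:C)) in each of 2 experiments. In every group the cells were grown for 6 days from C57BL/6 bone marrow with GM-CSF and selected on CD11c. The labels give 10 ng/ml GM-CSF and 2.5 ug/ml poly(I:C), whereas the methods of the study give higher concentrations of both. The labels also give the age of the mice as 3 to 4 months in one field and as 8 to 10 weeks in another. The methods state female mice of 3 to 4 months. According to the methods, each experiment used the marrow of 1 mouse and the experiments were months apart, so all 6 arrays of an experiment share 1 animal. No array came from an untreated culture at 1 h or later, so the effect of poly(I:C) and that of time in culture after 0 h cannot be told apart.

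Interleukin-6 family ligands signal through the shared receptor chain gp130, encoded by Il6st, and act on inflammation, the acute phase response and lymphocyte differentiation. Interleukin-12 family cytokines are heterodimers of an alpha and a beta subunit made from separate genes. Interleukin-12 joins the products of Il12a (p35) and Il12b (p40) and drives type 1 helper T cells. Interleukin-23 joins those of Il23a (p19) and Il12b, and interleukin-27 those of Il27 (p28) and Ebi3. Interleukin-10 belongs to a family of its own and restrains cytokine production by DC and macrophages. DC are a main source of several of these cytokines when T cells are activated, and transcription of Il6 and Il12b is a textbook response to pattern recognition receptors.

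RefSeq promoter windows of 250 bases before a transcription start were at hand for 5 of the 9 members, with 2 starts for Il12a. They are shown for the members with a window whose signal changed, 5′ to 3′ on the strand of the gene, with capitals marking letters that matched a searched motif. Windows were lacking for Osm, whose signal also changed, and for Il10, Il23a and Il27. The first Il12a start is not shown.
Il6: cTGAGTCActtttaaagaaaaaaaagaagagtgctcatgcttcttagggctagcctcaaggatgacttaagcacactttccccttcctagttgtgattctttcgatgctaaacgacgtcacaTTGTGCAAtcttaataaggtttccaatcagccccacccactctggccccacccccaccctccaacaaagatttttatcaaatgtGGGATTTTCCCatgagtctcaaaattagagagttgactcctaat
Il12a, the second start: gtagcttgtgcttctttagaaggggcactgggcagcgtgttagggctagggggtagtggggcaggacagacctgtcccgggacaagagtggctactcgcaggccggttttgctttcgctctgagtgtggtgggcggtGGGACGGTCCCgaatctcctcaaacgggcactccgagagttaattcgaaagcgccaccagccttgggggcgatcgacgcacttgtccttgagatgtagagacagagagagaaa
Il12b: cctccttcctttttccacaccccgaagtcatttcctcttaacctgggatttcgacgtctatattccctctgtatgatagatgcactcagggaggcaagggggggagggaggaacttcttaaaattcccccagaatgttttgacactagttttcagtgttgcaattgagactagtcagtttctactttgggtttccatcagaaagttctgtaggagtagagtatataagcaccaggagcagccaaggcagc
Ebi3: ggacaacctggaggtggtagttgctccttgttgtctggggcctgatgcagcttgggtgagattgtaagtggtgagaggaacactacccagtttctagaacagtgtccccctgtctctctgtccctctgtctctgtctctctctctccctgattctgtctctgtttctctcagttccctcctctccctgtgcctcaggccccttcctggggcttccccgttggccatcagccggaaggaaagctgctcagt
On build GRCm38.p6 these windows are chr5:30012864-30013113 for Il6, chr3:68691174-68691423 for Il12a, chr11:44399813-44400062 for Il12b and chr17:55952373-55952622 for Ebi3. All lie on the plus strand, immediately upstream of the annotated starts.

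Among the 6 motifs searched, the Il6 window held 3. A kappaB motif (GGGA, any 3 bases, then TCC), the kind of element bound by NF-kappaB, matched at -44 to -35 from the start and again on the opposite strand at -43 to -34, so the matches overlap. A C/EBP motif (TTGCNNAA) matched on the opposite strand at -128 to -121, so the printed capitals are its reverse complement. An AP-1 motif (TGANTCA) matched at -249 to -243. The second Il12a start held a kappaB pair at -113 to -104 and -112 to -103. The windows of Il12b, of Ebi3 and of the first Il12a start held none of the 6 motifs, and that of Lif held 1 AP-1 match at -228 to -222. Of 32851 mouse promoter windows of the same length, 3.86% held the kappaB motif, 9.56% the C/EBP motif and 6.75% the AP-1 motif. The other motifs were the cyclic AMP element TGACGTCA (1.55% of windows), an interferon-stimulated element of GAAA, any 2 bases and GAAA (2.98%) and TATAAA (7.59%). All were searched on both strands except the last, which was searched on the plus strand. A match is a run of letters and says nothing about binding in these cells. Only these letters were searched, so a window with no match may still hold other forms of these elements.

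Signal is given as intensity, which the array software scaled so that the trimmed mean of every array was 500. Array medians were 70.9 to 91.4, and a member below the median of its own array is called near background here. Of the 10 dendritic cell markers 9 passed the filter on mean intensity, with Itgax, which encodes CD11c, at 16176 to 24684. The exception was Flt3, at 9.32 to 89.9. All 6 macrophage markers were also well measured, with a summed intensity of 40163 to 42105 at 0 h, 50562 to 63982 at 12 h and 44276 to 60498 at 24 h. At 24 h Fcgr1 was higher than at 0 h by 2.71 on the log2 scale and Mertk by 1.29, and Mrc1 fell by 2.92 (limma adjusted p = 1.11e-05, 0.0042 and 0.00145). Adgre1, Cd14 and Csf1r, with changes of 0.04, -0.01 and 0.04, were not called. Of the 9 dendritic cell markers tested, 4 were called higher at 24 h (9.23% of all tested) and none lower (17.5%). They were Cd86 (3.40), Ccr7 (2.48), H2-Eb1 (0.78) and H2-Aa (0.73). The intensity of Ccr7 ran from 39.9, which is near background, to 7854. The part of macrophage or dendritic cell markers in the cytokine values was not tested. None of the 5 T and NK cell markers passed the filter, and their summed intensity was 97.0 to 217. The same was true of the 5 mast cell and basophil markers, at 86.8 to 256 in sum. The 6 neutrophil markers, of which S100a8 and Ngp passed, summed to 1707 to 3656, both ends being 24 h arrays (1707 in experiment 1 and 3656 in experiment 2), and their part in values that differ between the experiments at 24 h was not tested. Of the 4 B cell markers 1 passed, and of 16 genes of unrelated tissues 3. Limma called no gene of these lists or of the neutrophil list at any time, with 1 B cell marker at 1 h and 1 unrelated gene at 24 h at an unadjusted p under 0.05.

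Of the 10 member probe sets 6 passed the filter (Il6, Il12a, both probe sets of Il12b, Ebi3 and Osm). Il6, Il12a and both Il12b probe sets were near background on both 0 h arrays and passed through their later values, so counts over the members that passed carry no weight of their own. Il23a, Il10 and both Lif probe sets did not pass. The plot of intensity by time gives every value. Below, the intensities of an experiment are listed in the order 0, 1, 3, 6, 12 and 24 h.

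**Figure D1:**
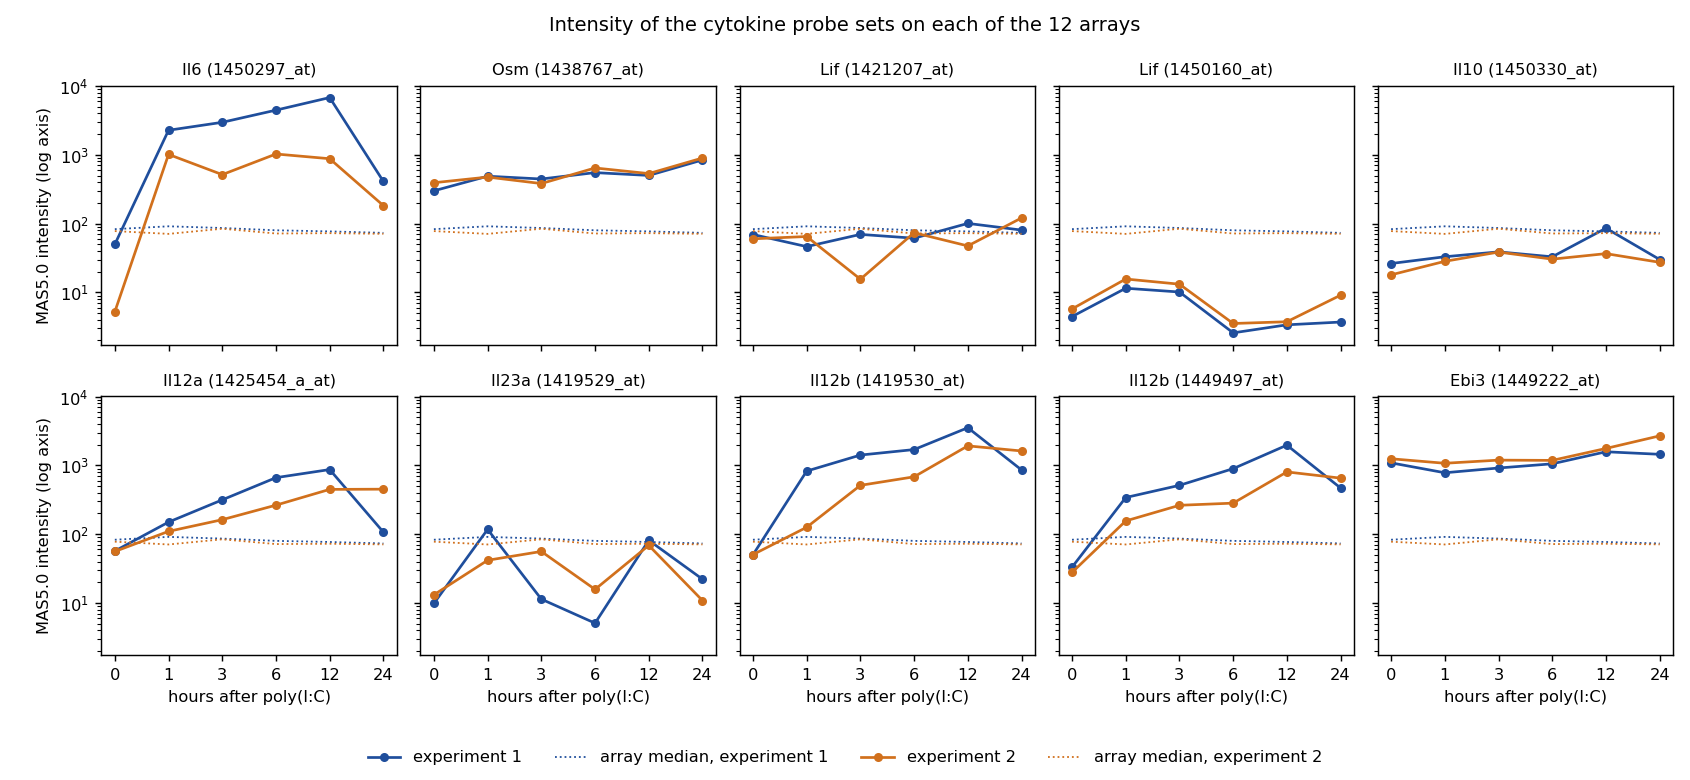
Intensity (log axis, arbitrary units) of each member probe set against hours after poly(I:C), with 1 line per experiment and the array medians as the near-background line. Il6, Il12a and Il12b begin below the median and leave it, Ebi3 and Osm lie above it on all 12 arrays, and Il10, Il23a and Lif stay close to it or below.

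Il6 was the member with the largest change at 1, 3, 6 and 12 h. Its probe set, 1450297_at, read 49.9, 2276, 2970, 4463, 6798 and 410 in experiment 1. In experiment 2 it read 5.23, 1014, 515, 1028, 878 and 183. All arrays from 1 h on lay above both 0 h arrays, and from 1 h on experiment 1 was the higher of the pair, by 2.24-fold at 1 h and 7.74-fold at 12 h. At 0 h both values were near background. The peak was at 12 h in experiment 1 and at 6 h in experiment 2.

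In the limma fit, which removes the difference between experiments, Il6 rose by 5.36 at 1 h on the log2(intensity + 16) scale (SE 0.40, adjusted p = 0.000939), a 41.1-fold change. The rise was 5.07 at 3 h (adjusted p = 8.21e-05), 5.85 at 6 h (adjusted p = 1.15e-05) and 6.04 at 12 h (adjusted p = 5.14e-06), the last being 66.0-fold. At 24 h it was 2.96 (adjusted p = 0.00063), or 7.78-fold. Because the added 16 exceeds the experiment 2 value at 0 h, these changes are smaller than the raw ratios. Without the term for experiment, the calls at 6 and 12 h held and those at 1, 3 and 24 h were lost (adjusted p = 1.0, 0.170 and 0.128). In bulk RNA, a change in the share of cells that express a gene and a change in RNA per cell cannot be told apart.

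Il6 was also the only member called between 12 and 24 h. It fell by 3.08 on the log2 scale (SE 0.40, adjusted p = 0.00622), or 8.48-fold, and was 16.6-fold lower in experiment 1 and 4.81-fold lower in experiment 2 by raw intensity. The signal at 24 h was 6.03% of the highest in experiment 1 and 17.8% of that in experiment 2. Without the 12 h array of experiment 1 the fall was 2.47 and missed the threshold (log2 change -2.47, adjusted p = 0.0654), as it did without the term for experiment (adjusted p = 0.337).

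Osm, a ligand of the same family made by myeloid cells, had a slower and smaller course. Its probe set, 1438767_at, read 299.7, 489, 445, 551, 502 and 842 in experiment 1. The values in experiment 2 were 393, 475, 382, 644, 534 and 899, so that 24 h was the highest time in both. Only the 3 h array of experiment 2 lay within the range of the 0 h arrays. Osm rose at 24 h by 1.30 (SE 0.20, adjusted p = 0.00138), or 2.47-fold, and this call held under every alternative run. The changes of 0.77 at 6 h (adjusted p = 0.0571) and 0.57 at 12 h (adjusted p = 0.0609) missed the threshold, and both passed it after quantile normalization (adjusted p = 0.0239 and 0.0116). Both also passed without either 24 h array (adjusted p = 0.0181 and 0.0183 at 6 h, 0.0284 and 0.0288 at 12 h), and that at 6 h with only the 4 arrays of the comparison (adjusted p = 0.0296). From 12 to 24 h the raw ratio was 1.68 in both experiments, and the fitted change of 0.73 missed the threshold (adjusted p = 0.0735). Without the 24 h array of experiment 1 it passed (log2 change 0.74, adjusted p = 0.0493).

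Lif lies 16.5 kb beyond the end of Osm on chromosome 11 and also signals through gp130. The brighter of its probe sets, 1421207_at, read 69.5, 46.3, 69.7, 61.4, 100.7 and 80.5 in experiment 1. The readings of experiment 2 were 60.1, 64.9, 15.6, 73.7, 47.4 and 120.9. It was near background on 8 of 12 arrays, with no order shared by the experiments. The other, 1450160_at, read 2.58 to 15.7 and was near background on all 12 arrays. In the fit without a filter, neither was called at any time.

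Il12b, the p40 subunit shared by interleukin-12 and interleukin-23, was read by 2 probe sets. The first, 1419530_at, read 50.2, 827, 1414, 1700, 3531 and 859 in experiment 1 and 50.5, 126, 513, 683, 1923 and 1621 in experiment 2. The second, 1449497_at, read 33.1, 341, 513, 897, 1970 and 469 in experiment 1 and 27.8, 156, 263, 283, 804 and 653 in experiment 2. Both probe sets peaked at 12 h in both experiments, and every later array lay above both 0 h arrays. From 1 to 12 h experiment 1 was the higher in both probe sets, and at 24 h experiment 2 was.

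The 12 h rise of Il12b was 5.30 for the first probe set (SE 0.62, adjusted p = 0.00025), or 39.5-fold, and 4.78 for the second (SE 0.43, adjusted p = 4.51e-05), or 27.5-fold. The 6 h rises were 4.05 and 3.49 (adjusted p = 0.0037 and 0.00082) and the 24 h rises 4.17 and 3.62 (adjusted p = 0.00107 and 0.00028). The 1 h changes of 2.38 and 2.42 missed the threshold (adjusted p = 1.0 and 0.252), the second passing it without either 24 h array (adjusted p = 0.0106 and 0.0109) and with only the 4 arrays of the comparison (adjusted p = 0.0252). The 3 h rises of 3.71 and 3.05 (adjusted p = 0.0162 and 0.00473) were lost for both without the term for experiment (adjusted p = 0.145 and 0.105) or without the experiment 1 array at 0 or 3 h, and for the first probe set also without the 3 h array of experiment 2 or either 12 h array or the intensity trend (adjusted p = 0.0681). The 6 h call of that probe set was lost without the 0 h array (log2 change 3.51, adjusted p = 0.0697) or the 6 h array of experiment 1 (log2 change 3.79, adjusted p = 0.0707).

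From 12 to 24 h the Il12b probe sets were 4.11-fold and 4.20-fold lower in experiment 1, and 1.19-fold and 1.23-fold lower in experiment 2. The fitted changes of -1.13 and -1.16 missed the threshold (adjusted p = 0.325 and 0.149). Without the 24 h array of experiment 2 they were -2.20 and -1.90 and passed (adjusted p = 0.0272 and 0.0101), and without that of experiment 1 they were -0.06 and -0.43. Experiment 1 and experiment 2 thus set different sizes for the decline, and with 1 array each that difference was not tested.

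Ebi3, the beta subunit of interleukin-27, was expressed before stimulation. Its probe set, 1449222_at, read 1089, 782, 917, 1055, 1578 and 1450 in experiment 1. In experiment 2 it read 1249, 1074, 1193, 1183, 1764 and 2689. All arrays at 12 and 24 h lay above both 0 h arrays, and those at 1, 3 and 6 h lay below the 0 h array of the same experiment. The 24 h rise of 0.75 (SE 0.21, adjusted p = 0.023), or 1.68-fold, was the only call. It was lost without either 0 h array (log2 change 0.86 and 0.65, adjusted p = 0.0735 and 0.171), without the 24 h array of experiment 2 (log2 change 0.44, adjusted p = 0.0872), with only the 4 arrays of the comparison (adjusted p = 0.209) and without the term for experiment (adjusted p = 0.147). The changes at 1, 3 and 6 h were -0.34, -0.15 and -0.06, and that at 6 h turned to just above 0 under median centring and quantile normalization. The 12 h change of 0.51 missed the threshold (adjusted p = 0.0928), and passed it without either 24 h array (adjusted p = 0.0127 and 0.0133).

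Il12a, the p35 subunit of interleukin-12, was read by probe set 1425454_a_at at 57.0, 149.9, 316, 664, 870 and 107 in experiment 1. In experiment 2 it read 56.1, 110.0, 163, 264, 448 and 451. Every array from 1 h on lay above both 0 h arrays. Il12a rose at 12 h by 3.15 (SE 0.61, adjusted p = 0.00433), or 8.85-fold, a call lost without the 12 h array of experiment 1 (log2 change 2.74, adjusted p = 0.0522). The 6 h rise of 2.59 (adjusted p = 0.0372) was lost in 10 of the 12 fits that left out 1 array, namely all but those without a 24 h array, without a filter (adjusted p = 0.0515), without the intensity trend (adjusted p = 0.0718) and without the term for experiment (adjusted p = 0.106). The 3 h change of 1.75 missed the threshold (adjusted p = 0.453) but passed it with only the 4 arrays of the comparison (adjusted p = 0.00274) and without either 24 h array (adjusted p = 0.0104 and 0.0124).

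At 24 h the experiments parted. Il12a was 8.13-fold lower than at 12 h in experiment 1, and in experiment 2 the 12 h signal was 0.993 of that at 24 h. The 24 h change against 0 h was 1.73 (adjusted p = 0.0619), which passed the threshold under median centring (adjusted p = 0.0413). Without the 24 h array of experiment 1 it was 3.04 (adjusted p = 0.00016), and without that of experiment 2 it was 0.41. The 24 h against 12 h change of -1.42 missed the threshold (adjusted p = 0.212), and was -2.73 without the 24 h array of experiment 2 (adjusted p = 0.00248). The plot of the time course within each experiment shows the split for both subunits of interleukin-12.

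**Figure D2:**
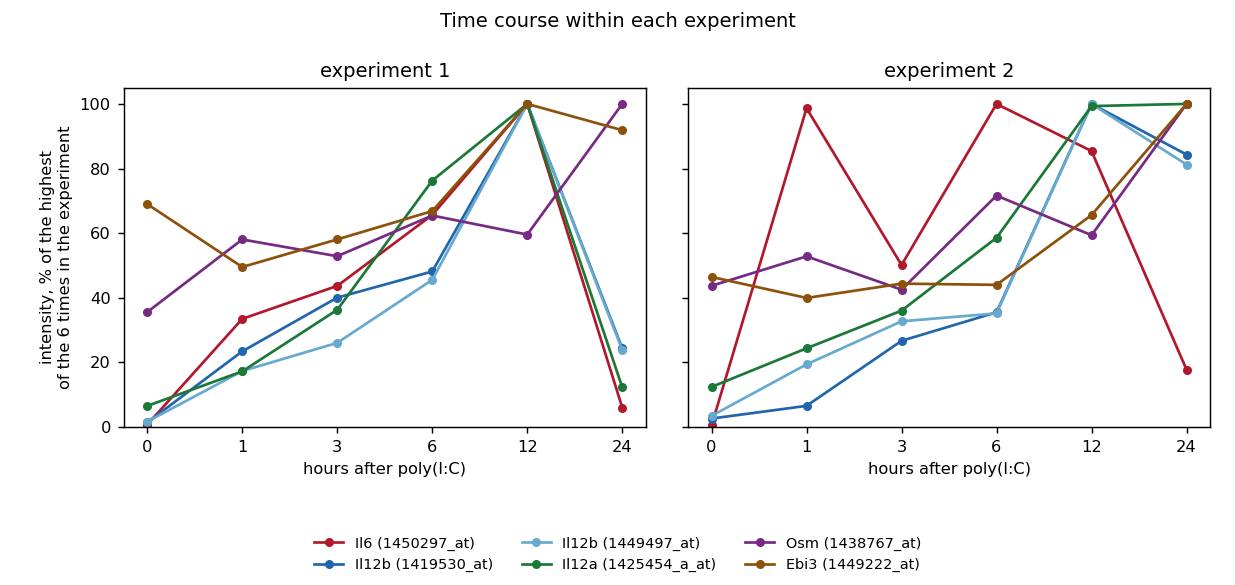
Intensity as a percentage of the highest value in the same experiment, against hours after poly(I:C), with 1 panel per experiment and 1 line for each member probe set that passed the filter. Il6 at 1 h was at 33.5% of its highest in experiment 1 and 98.7% in experiment 2, and Il12a at 24 h lies far below its 12 h value in experiment 1 but not in experiment 2.

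Il23a, the p19 subunit of interleukin-23, was read by probe set 1419529_at at 9.86, 118, 11.4, 5.09, 81.5 and 22.2 in experiment 1. In experiment 2 it read 13.1, 41.8, 56.1, 15.8, 68.8 and 10.9. It was above the array median only at 1 h and 12 h in experiment 1, and near background on the other 10 arrays. Both arrays at 1 h and both at 12 h lay above both 0 h arrays. In the fit without a filter the changes were 1.68 at 1 h (SE 0.58, adjusted p = 1.0) and 1.73 at 12 h (adjusted p = 0.0834), neither past the threshold. Il12b, whose product pairs with p19, was called from 3 h on.

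Il10, read by probe set 1450330_at, was at 26.3, 33.0, 38.9, 32.9, 85.8 and 30.1 in experiment 1. Experiment 2 gave 18.0, 28.3, 38.6, 30.4, 36.6 and 27.4. All 10 later arrays lay above both 0 h arrays, and only the 12 h array of experiment 1 was above its array median. In the fit without a filter the 12 h change was 0.95 (SE 0.44, adjusted p = 0.223), and no time passed the threshold.

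**Figure D3:**
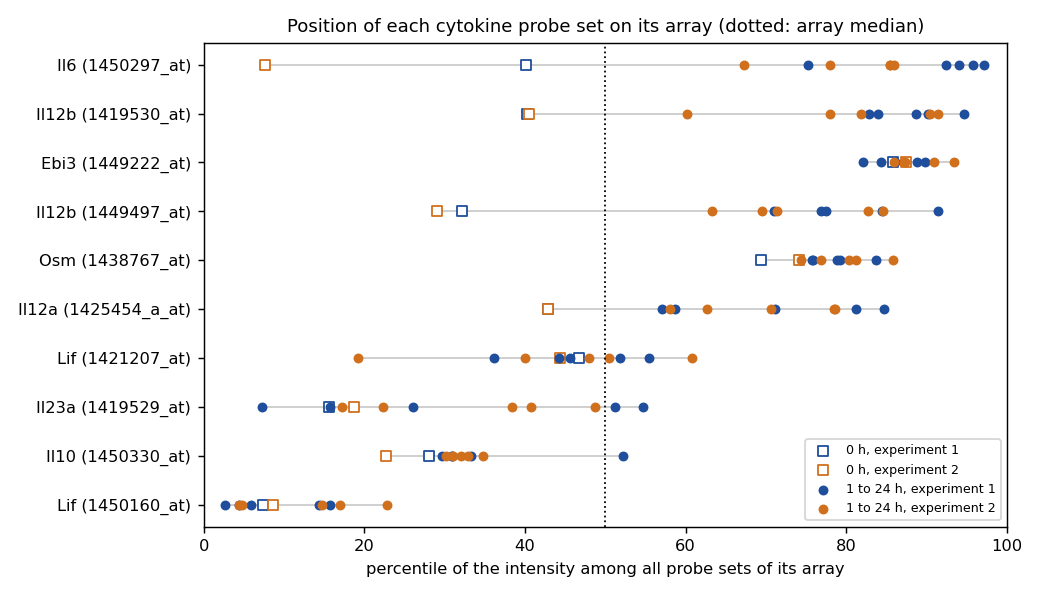
Percentile of each member probe set among all probe sets of the same array, at each time, with both experiments. Il6 runs from 7.66 at 0 h in experiment 2 to 97.1 at its highest, Ebi3 lies between 82.1 and 93.4, and the second Lif probe set does not pass 22.8.

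Of the 6 member probe sets tested, 1 was called higher at 1 h, beside 0.0533% of all 22519 tested. The count was 3 at 3 h (1.01% of all), 4 at 6 h (3.62%), 4 at 12 h (9.32%) and 5 at 24 h (9.23%). None was called lower by limma at any of these times, where 0%, 0.0444%, 1.95%, 18.7% and 17.5% of all tested were lower, and none had an unadjusted p under 0.05 in that direction. Between 12 and 24 h, 1 member was lower (2.25% of all) and none was higher in limma (1.87% of all), with 3 and 1 at an unadjusted p under 0.05 in these directions.

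In the fit without a filter, members called higher numbered 1 of 10 at 1 h (0.0266% of all 45037), 3 at 3 h (0.471%), 3 at 6 h (1.59%), 4 at 12 h (4.18%) and 5 at 24 h (3.99%). None was lower by limma at these times, also at an unadjusted p under 0.05, where 0%, 0.0133%, 0.502%, 7.66% and 7.2% of all were called. From 12 to 24 h, 1 was lower (0.635%, Il6) and none was called higher in limma (0.442%, with 1 at an unadjusted p under 0.05).

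Over all 10 members without a filter, the median log2 change was 0.74 at 1 h, 0.61 at 3 h, 0.55 at 6 h, 1.34 at 12 h and 1.03 at 24 h. The medians of all 45037 probe sets lay between -0.08 and -0.01. Changes above 0 were seen for 8, 8, 7, 9 and 10 members, against 42.8% to 49.0% of all probe sets. The 5 comparisons share the 0 h arrays, so they are not separate evidence. Among probe sets that passed the filter the median change was -0.16, -0.23 and -0.19 at 6, 12 and 24 h, and quantile normalization moved it to -0.08, -0.09 and -0.06.

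**Figure D4:**
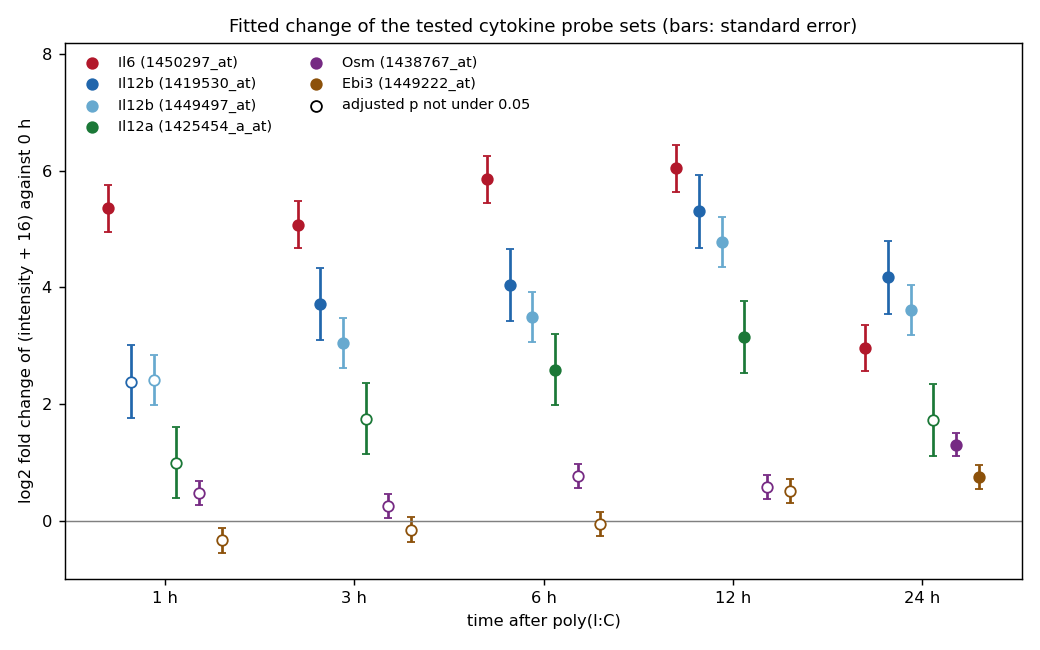
Log2 fold change against 0 h from limma for each member probe set past the filter, with bars of 1 standard error and filled points where the adjusted p is under 0.05. Il6 and Il12b rise furthest, Osm and Ebi3 pass the threshold at 24 h alone, and no point below 0 is filled.

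As a description over the 12 arrays with each experiment's mean removed, the probe sets of Il12b followed each other with Pearson r = 0.975, and Il12a followed them with r = 0.904 and 0.915. Il6 followed Il12a with r = 0.750 and the Il12b probe sets with r = 0.743 and 0.799, Osm with 0.27 and Ebi3 with -0.09. The genes most like Il6 were Tnfaip3, an inhibitor of NF-kappaB signaling (r = 0.942), Socs3, which restrains gp130 signaling (probe set 1416576_at, r = 0.917), Hsd17b11 (r = 0.901) and Leng9 (r = 0.893). Those most like the first Il12b probe set were Clec4e, a C-type lectin receptor (r = 0.959), Ccrl2 (r = 0.958), Cflar, an inhibitor of caspase-8 (r = 0.954), and Tiparp (r = 0.953). These points share arrays and animals.

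Of 10 receptor chains for the members, 9 had a probe set and 7 passed the filter, all but Osmr and Lifr. By limma none was called at 1 h (0 also at an unadjusted p under 0.05), 1 was higher at 3 h, 2 at 6 h, 4 at 12 h and 3 at 24 h, and 2 were lower at 12 h. Of all probe sets tested, 1.01%, 3.62%, 9.32% and 9.23% were higher at 3, 6, 12 and 24 h, and 18.7% and 17.5% were lower at 12 and 24 h. The 3 h call, Il10ra (adjusted p = 0.0425), was lost in 9 of the 12 fits that left out 1 array. It was also lost without a filter (adjusted p = 0.0510) or the intensity trend (0.109). Il10rb at 12 h (adjusted p = 0.0493), named after its values were seen, was lost in 10 of those 12 fits. Quantile normalization (adjusted p = 0.205) and the fit without the term for experiment (0.127) also lost it. The receptor list had a median change of 0.53 at 12 h, beside -0.23 over all probe sets tested. Il12rb1, the chain shared by the interleukin-12 and interleukin-23 receptors, rose by 2.39 at 12 h (SE 0.34, adjusted p = 0.000706). Its lowest intensity, 57.4, was near background, and its highest was 480. Il12rb2, which completes the interleukin-12 receptor, rose by 1.25 at 12 h (adjusted p = 0.00528), a call lost without the 0 h array of experiment 2 (adjusted p = 0.0528). Il10ra, the ligand-binding chain for interleukin-10, rose by 1.26 at 6 h (adjusted p = 0.0107), lost without the term for experiment (adjusted p = 0.0804), either 6 h array or the experiment 1 array at 0 h. Il6st, which encodes gp130, fell by 0.99 at 12 h (adjusted p = 0.0142), lost without either 0 h or either 12 h array and without the term for experiment (adjusted p = 0.182). Il6ra, the interleukin-6 binding chain, named after its values were seen, fell by 1.27 at 12 h (adjusted p = 0.0181), lost without that term (adjusted p = 0.0635), either 12 h array or the experiment 2 array at 0 h.

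Of the kinases, STAT factors and SOCS inhibitors that act below these receptors, all 7 with a probe set passed the filter. By limma none was called at 1 h (1 at an unadjusted p under 0.05). The count higher was 1 at 3 h (1.01% of all tested), 2 at 6 h (3.62%), 6 at 12 h (9.32%) and 5 at 24 h (9.23%), and 1 was lower at 24 h (17.5%). The median change at 12 h was 1.12. Socs1, an inhibitor of JAK kinases, rose by 2.69 at 12 h (SE 0.32, adjusted p = 0.000261). Stat4, which carries the interleukin-12 signal, rose by 4.84 at 24 h (SE 0.86, adjusted p = 0.00277). Its intensity ran from 2.80, which is near background, to 1907, with a mean of 278 over the 12 arrays. The size of its 24 h change ranged from 3.49 to 6.19 when 1 array was left out. Stat3, which carries that of interleukin-6 and interleukin-10, rose by 1.12 at 12 h (adjusted p = 0.00333), and the kinase Tyk2 by 1.08 (adjusted p = 0.00401), the latter lost without the term for experiment (adjusted p = 0.0911). Among the 5 called higher at 24 h, Tyk2 (0.62) and Socs1 (1.00) were near the threshold (limma adjusted p = 0.0493 and 0.0407). Both were lost without a filter (adjusted p = 0.0728 and 0.0574), the intensity trend (0.0776 and 0.0699) or the term for experiment (0.336 and 0.0845). The Tyk2 call was also lost in 10 of the 12 fits that left out 1 array, and the Socs1 call in 8. With only the 4 arrays of the comparison Tyk2, Socs1 and Stat3 were lost at 24 h (limma adjusted p = 0.297, 0.158 and 0.0854). From 12 to 24 h 2 were lower (2.25% of all tested), Socs1 and, named after its values were seen, Jak2 (log2 changes -1.69 and -1.24). Both were lost without the term for experiment (adjusted p = 0.147 and 0.450) or the experiment 1 array at 12 h, and Socs1 also without the other 12 h array, either 3 h array or the intensity trend (adjusted p = 0.0602).

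All 13 regulators of cytokine transcription with a probe set passed the filter. The counts called higher were 1, 2, 3, 7 and 4 at 1, 3, 6, 12 and 24 h (0.0533%, 1.01%, 3.62%, 9.32% and 9.23% of all tested), and 1 was lower at 12 h (18.7%) and 2 at 24 h (17.5%), with a median change of 0.98 at 12 h. Nfkbiz, a nuclear co-activator needed for induction of Il6 and Il12b, rose by 3.10 at 1 h (SE 0.22, adjusted p = 0.000939) and by 2.01 at 6 h (adjusted p = 0.00037), and fell by 1.24 at 24 h (adjusted p = 0.00278). From 12 to 24 h it fell by 2.45 (adjusted p = 0.00185), the only gene of the list called there (2.25% of all tested were lower). Its lowest intensity, 59.7, was near background, and its highest was 3884. These Nfkbiz calls were lost without the term for experiment (adjusted p = 1.0, 0.322, 0.344 and 0.265), and that at 24 h against 0 h also with only the 4 arrays of the comparison (adjusted p = 0.0854). Irf1 rose by 2.89 at 6 h (SE 0.28, adjusted p = 0.000135) and Atf3, a repressor of inflammatory cytokine genes, by 1.23 at 12 h (adjusted p = 0.000431). Cebpd fell by 1.98 at 24 h (SE 0.23, adjusted p = 0.000264).

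Of 7 regulators of cytokine mRNA stability, all passed the filter, and 2 were higher at 6 h (3.62% of all tested) and at 12 h (9.32%) and 2 lower at 24 h (17.5%), with a median change of -0.10 at 12 h. Arid5a, which protects Il6 mRNA, rose by 1.15 at 6 h (adjusted p = 0.0104), and Zfp36, which promotes decay of cytokine mRNA, by 1.14 (adjusted p = 0.0133). Both 6 h calls were lost without the term for experiment (adjusted p = 0.103 for each), either 6 h array or the experiment 1 array at 0 h, and that of Zfp36 also without the experiment 2 array at 0 h. Elavl1, which stabilizes mRNA, fell by 0.87 at 24 h (adjusted p = 0.00711), lost without the 0 h array of experiment 2 (adjusted p = 0.0796) and with only the 4 arrays of the comparison (adjusted p = 0.134). Rc3h1, which promotes decay, fell by 0.84 at 24 h (adjusted p = 0.0152), lost without either 0 h array, under median centring (adjusted p = 0.057), with only the 4 arrays of the comparison (adjusted p = 0.168) and without the term for experiment (adjusted p = 0.263). Of 3 further interleukin-6 family ligands with a probe set 1 passed the filter, Clcf1, with a change of 0.78 at 24 h that missed the threshold (adjusted p = 0.0942).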

How the data were processed

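RNA of GM-CSF bone marrow DC was hybridized to Affymetrix mouse arrays, 1 per time and experiment. The authors deposited MAS5.0 intensities, scaled on each array to a trimmed mean of 500, and the methods state that the experiments were hybridized and normalized apart. After 64 control probe sets were left out, 34945 had 1 gene symbol, 932 several and 9160 none, of which only those with 1 were named. Groups came from the sample titles.

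Time and experiment were fitted to log2(intensity + 16) with limma 3.58.1 (R 4.3.3; intensity trend, Benjamini-Hochberg over 22519 probe sets with a mean intensity at or above the median, 78.4; threshold 0.05), with 5 residual degrees of freedom. A fold change on this scale understates that of dim probe sets. The script was tested on simulated data. Experiment is a block because its arrays share 1 mouse; deviations from the time means correlated in all 15 pairs of times (r = 0.256 to 0.660). P-values rest on the scatter left once the constant difference between the 2 experiments is removed, pooled over all times. That scatter is how far the time courses of the 2 experiments differ in shape. Limma then drew the variance of each probe set toward that of probe sets of similar intensity, with 5.24 prior degrees of freedom (median). Precision is limited by the few arrays.

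All members were named, with up to 4 genes of each pathway list by smallest p and the 4 most correlated with Il6 and with Il12b. The members and lists were chosen with earlier results of these data known. Alternatives were another pseudocount, filter, scaling or trend, no block, 4 arrays only, leaving out each array, and a background line from genes of unrelated tissues. Promoters came from RefSeq.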

Additional observations from a re-analysis of the deposited data

Results flagged for a closer look

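The change of Il6 from 0 h differed between 24 h and 12 h in the limma contrast of these times, by -3.08 on the log2 scale (SE 0.40, adjusted p = 0.00622), and was lower at 24 h in 2 of 2 experiments. Intensity was 6798 and 878 at 12 h and 410 and 183 at 24 h in experiments 1 and 2. The cause was not tested.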

How the results depend on the processing

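Over the alternatives other than leaving out 1 array, among them the fits on only the 4 arrays of a comparison, 304 of 324 member changes stayed on the same side of the threshold with the same direction, 12 lost and 6 gained a call, and 2 reversed. Without the replicate block (the pairing of arrays by experiment) members called higher numbered 0 at 1 h, 0 at 3 h and 3 at 24 h (both Il12b probe sets and Osm), and 0 were lower at 24 h than at 12 h. Of the pathway lists at 12 h, 3 receptors, 3 of the JAK, STAT and SOCS genes, 2 transcription regulators and 2 stability regulators were then higher and 0 of each lower. With only the 4 arrays of the comparison 2 members were higher at 1 h. The reversals were Ebi3 at 6 h, with 0.0097 under median centring and 0.0012 under quantile normalization. Leaving out 1 array gave counts of 1 to 2 higher at 1 h, 1 to 4 at 3 h, 2 to 5 at 6 h, 3 to 6 at 12 h, 4 to 6 at 24 h, 0 to 1 higher and 0 to 4 lower between 12 and 24 h. Of these 432 changes, 390 stayed, 24 lost and 15 gained a call, and 3 reversed. Those were Ebi3 at 6 h, which ranged from -0.19 to 0.063 and was above 0 with the experiment 1 array at 0 h left out (0.045) or the experiment 2 array at 6 h left out (0.063), and Ebi3 at 24 h against 12 h, which ranged from -0.066 to 0.55 and was below 0 with the experiment 2 array at 24 h left out. The counts moved by over 1.5 times without the 0 h or 3 h array of experiment 1 (1 at 3 h), the 0 h or 6 h array of experiment 1 (2 at 6 h), either 24 h array (2 at 1 h), the 12 h array of experiment 1 (0 lower from 12 to 24 h) and the 24 h array of experiment 2 (4 lower from 12 to 24 h). Without the 24 h array of experiment 1, 1 member was higher at 24 h than at 12 h. With the upper quartile of genes of unrelated tissues as the background line, Il23a was below it on 7 of 12 arrays in place of 10, Il10 on 11 as before, and the brighter Lif probe set on 3 in place of 8. The cause of these differences was not tested, and the fits that left out arrays also had fewer of them.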
